A study of Mus musculus with 33 samples.

Results

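The genes described here encode the proteins of the cytosolic ribosome of the mouse. Their members were chosen by name, as every gene symbol of the pattern Rpl or Rps plus a number (with an optional a or x), and Rplp0, Rplp1, Rplp2 and Rpsa, provided that the gene reached 1 RPM (reads per 1000000 reads of the library total) in at least 3 libraries of a tongue table. Of the 27825 genes in a tongue table, 71 met this rule, 30 of the small and 41 of the large ribosomal subunit. Another 6 names of the pattern have a row in the table of sorted E18.5 cells only, namely Rpl10, Rpl13, Rpl19, Rpl36a, Rpl39 and Rps4x, and were not analysed here in tongue. The study followed mouse tongue at embryonic day E13.5 and at postnatal days P0 and P20, with 3 wild type and 3 Zac1 biallelic expressing animals at each stage, and cells sorted from ribcages at E18.5 and labelled pre-hypertrophic chondrocytes, from 5 wild type and 6 Zac1 biallelic expressing animals. Zac1, whose gene symbol is Plagl1, is an imprinted gene for a zinc finger transcription factor. The "Zac1o knockout" mice of the labels express it from both alleles. Each tongue library came from the total RNA of a tongue after removal of ribosomal RNA, and each library of sorted cells came from the polyadenylated RNA of about 2000 cells sorted as Cd24a+ and Cd200+.

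A ribosome is built from ribosomal RNA and a fixed set of proteins, most of which are present in 1 copy per subunit. The small subunit holds the messenger RNA channel and the decoding centre. The large subunit forms the peptide bond, passes the chain through an exit tunnel and carries the acidic stalk that recruits translation factors. Growing cells spend much of their transcription on these genes. Their messenger RNAs begin with a run of pyrimidines, the 5′ terminal oligopyrimidine (TOP) motif, through which mTOR and LARP1 control their translation. Mutations in several of them give anaemia, short tails or skeletal defects in mice.

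The genes lie on 18 chromosomes, 14 of them on chromosome 7, and their gene bodies were short, with a median of 3.24 kb (0.85 to 42.64 kb). In the GENCODE M21 annotation 27 of the 71 hold small nucleolar RNA genes inside them, 55 in all, and 53 of the 71 have at least 1 pseudogene that bears their name. In 16 of the 71 the row overlaps another protein-coding gene, on the opposite strand in 14 and on the same strand in 3, with Rpl24 in both groups. The opposite-strand group includes Rpl12, Rpl15, Rpl28 and Rpl31, and the same-strand group also has Rpl13a and Rps10. The row of Rpl24 spans 42639 bases and holds a second annotated Rpl24 gene. The handling of strand and of repeated sequence in the counting was not given in the sources used here. Values of these genes, and of those with near-identical copies, carry that uncertainty.

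RPM in these files is relative to a library total of 36832717 to 52425994 reads at E13.5, 48336734 to 92249098 at P0, 45370175 to 58251242 at P20 and 2938462 to 15689559 in the sorted cells. The listed genes held 34.9 to 36.9%, 32.2 to 33.7%, 36.7 to 37.7% and 55.7 to 66.2% of those totals. Plagl1 was higher in every Zac1 biallelic library than in every wild type library of the same tissue and stage: 157.3 to 274.9 against 66.1 to 104.9 RPM at E13.5, 429.6 to 499.3 against 221.0 to 242.8 at P0, 50.9 to 77.1 against 23.1 to 30.5 at P20, and 17.6 to 49.99 against 3.18 to 15.3 in the sorted cells. The muscle marker list had 9 to 10 of 13 genes at 1 RPM or more at E13.5 and 12 to 13 at P0 and P20, and the epithelium list had 4 to 5 of 8 at E13.5 and 8 of 8 later. The markers of the sorted cells went against their label: in all 11 animals the leukocyte list summed to more (3507 to 4901 RPM, 9 to 12 of 12 genes at 1 RPM or more) than the chondrocyte list (277.7 to 1096 RPM, 11 to 12 of 14 genes). Ptprc, the pan-leukocyte marker CD45, held 234.3 to 543.5 RPM. They are called the sorted E18.5 cells here. Among them wild type animals 7, 8 and 9 stood apart, as did biallelic animal 3 among the E13.5 tongues, whose hypoxia and glycolysis markers summed to 3394 RPM where the other 5 libraries held 946.3 to 1310.

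Ribosomal protein transcripts were most abundant in the E13.5 tongue, fell steeply by P0 and recovered in part by P20. The 3 wild type libraries summed to 9092, 8072 and 8573 RPM over the 71 genes at E13.5. At P0 the sums were 1492, 1564 and 1668 RPM, and at P20 they were 2344, 1879 and 2538 RPM. The stages did not overlap, and the mean sum was 5.45 times higher at E13.5 (8579 ± 510, SD, n = 3) than at P0 (1574 ± 88.5) and 1.43 times higher at P20 (2254 ± 339) than at P0. The biallelic animals, which are other mice, gave 9039 ± 612, 1698 ± 159 and 2192 ± 326 RPM, ratios of 5.32 and 1.29. As a share of the RPM of all listed genes, the wild type means were 2.35%, 0.481% and 0.608%. The small-subunit genes held 51.0% of the sum at E13.5, 41.5% at P0 and 38.9% at P20 in wild type. This share is weighted to the most abundant genes, which at E13.5 included Rps14 and Rps3. The median log2 difference from E13.5 to P0 was close between the subunits, with -2.28 for small-subunit and -2.22 for large-subunit genes.

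**Figure D1:**
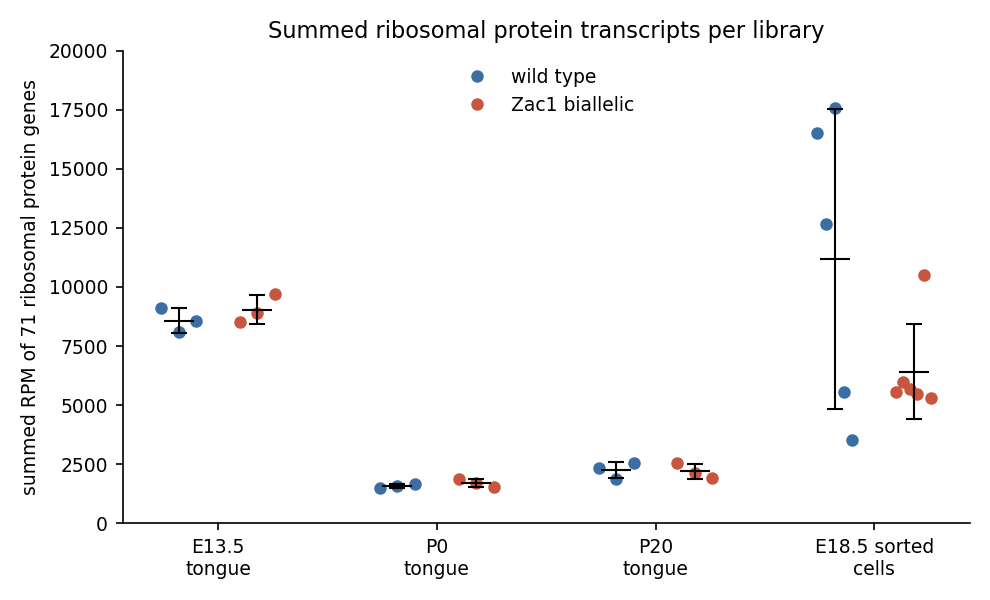
Summed RPM of the 71 ribosomal protein genes (vertical axis) in every library of 3 tongue stages and of the sorted E18.5 cells; points are animals, black bars the mean ± SD per group. The E13.5 libraries sit between 8072 and 9705, the P0 libraries between 1492 and 1857, and the wild type animals of the sorted cells range from 3520 to 17577.

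Between E13.5 and P0 in wild type tongue, 70 of the 71 genes fell and none rose (limma with mean-variance trend on log2 RPM, adjusted p under 0.05 over all 13663 genes tested). Of all tested genes 39.9% were lower by the same rule and 37.9% higher, 77.8% in either direction. The median log2 difference was -2.27 over the ribosomal protein genes and -0.04 over all genes. The E13.5 and P0 libraries did not overlap in any of the 70. The genes differed in how far they fell, from -3.95 to -0.57.

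Rps14, which lines the messenger RNA exit channel of the small subunit, fell the most. Its wild type libraries held 969.9, 1093 and 986.9 RPM at E13.5 and 58.5, 65.4 and 74.4 RPM at P0, a log2 difference of -3.95 ± 0.15 (SE; adjusted p = 2.84e-12, limma). Rps3, at the messenger RNA entry of the small subunit and also known for roles in DNA repair, went from 830.6, 700.5 and 751.0 RPM to 73.4, 81.9 and 83.1 RPM (-3.26 ± 0.16). The other genes of the steepest 5 were Rpl41, the smallest ribosomal protein (-3.30 ± 0.16), Rps7, a small-subunit protein that can bind Mdm2 (-3.29 ± 0.15), and Rpl13a, known for silencing of inflammatory transcripts outside the ribosome (-3.07 ± 0.14). For Rps14 and Rps3 every E13.5 library was far above every P0 library.

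At the other end, Rpl24, a protein of the bridge between the subunits, fell from 53.7, 48.5 and 56.0 RPM to 28.7, 26.9 and 33.0 RPM, a difference of -0.84 ± 0.11. Rpl28 went from 7.10, 6.98 and 5.96 RPM to 3.05, 4.01 and 3.99 RPM (-0.87 ± 0.16). Rpl4, whose long loop narrows the exit tunnel, went from 390.2, 272.6 and 309.8 RPM to 148.2, 151.6 and 151.5 RPM (-1.09 ± 0.16). For these 3 genes the E13.5 and P0 libraries stood clear of each other, by a smaller step than for Rps14. Rps16 was the gene that did not pass the test (-0.57 ± 0.62, adjusted p = 0.41, limma). It held 2.54, 16.2 and 2.73 RPM at E13.5 and 3.25, 3.87 and 2.71 RPM at P0, so that wild type library 2 alone was high at E13.5, and without that library its difference was 0.30.

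To ask which genes departed from the others, each library was centred on the median level of the 71 genes in it before the same limma test. In wild type that level averaged 5.68 log2 RPM at E13.5 and 3.68 at P0, a smaller fall than the median difference of single genes (-2.27). Differences from this reference therefore had a median of -0.26, with 46 genes below it and 25 above. By the test 35 of the 71 fell further than the reference and 13 fell less, a split that depends on the choice of reference. Of all tested genes 4.25% were lower and 85.4% higher on this scale, 89.7% in either direction, since most genes of the tongue did not share the fall, so these shares serve as background only. Relative to the reference Rps14 had -1.94, Rpl41 and Rps7 each -1.29, Rps3 -1.25 and Rpl13a -1.07. Rpl24 (1.17), Rpl28 (1.14) and Rpl4 (0.92) were above it. Rps16 was also called above it (1.43, adjusted p = 0.042, limma), a call that was lost in 6 of the other settings and leave-out fits.

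By place in the ribosome, all listed groups fell from E13.5 to P0. Since 70 of the 71 genes fell, where 39.9% of all tested genes were lower, these counts do not set any group apart. The stalk group, Rplp0, Rplp1, Rplp2 and Rpl12, fell in 4 of 4 with a median of -1.97; Rplp0, its anchor on the large subunit, went from 442.5, 356.5 and 401.0 RPM to 93.4, 100.9 and 108.2 RPM. Rpl5 and Rpl11, which carry the 5S ribosomal RNA and can bind Mdm2, fell by 2.51 ± 0.14 and 2.61 ± 0.12 on the log2 scale. The exit tunnel and its rim fell in 8 of 8 tested genes (median -2.07), from -1.09 in Rpl4 to -2.64 ± 0.12 in Rpl35. The messenger RNA channel fell in 6 of 6 (median -2.51), from -1.25 ± 0.13 in Rps26 to -3.95 in Rps14. In the decoding centre Rps15, Rps23 and Rps27a fell in 3 of 3 (median -2.09). The group known from mouse mutants with developmental defects (Rpl24, Rpl27a, Rpl38, Rps7, Rps19 and Rps20) fell in 6 of 6 (median -1.99), with Rpl38, needed for normal axial skeleton patterning, at 54.4, 43.4 and 48.4 RPM at E13.5 and 14.1, 13.2 and 11.5 RPM at P0. Members of 1 group thus spanned most of the range of the whole set.

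Other short genes also lost RPM between these stages, to a smaller extent. Among genes that are not ribosomal protein genes, the median log2 difference was -1.17 for gene bodies under 2 kb, -0.78 from 2 to 10 kb, -0.29 from 10 to 50 kb, 0.61 from 50 to 200 kb and 1.65 at 200 kb or more. The ribosomal protein genes had medians of -2.22 (11 genes), -2.27 (56 genes) and -1.88 (4 genes) in the 3 shorter bands. Genes of 200 kb or more held 3.79 to 4.84% of the listed RPM at E13.5 and 20.1 to 21.9% at P0, and genes under 10 kb held 39.0 to 50.7% and 14.1 to 16.8%. Centred on genes under 10 kb, a setting chosen after seeing the data, the median fall was -1.51 with 64 of 71 genes lower (20.8% of all genes tested were lower and 57.7% higher), and the falls of Rpl24, Rpl28 and Rpl4 were among those that no longer passed. RNA at E13.5 was extracted with another kit (AllPrep) than at P0 and P20 (TRIsure), and stage and extraction cannot be told apart. In whole tissue, fewer cells rich in these transcripts and less RNA per cell cannot be told apart either: the muscle markers rose in 12 of 13 genes (median 6.12) and the cell cycle markers fell in 15 of 15 (median -2.82) in the same contrast, and their part in the result was not tested.

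**Figure D2:**
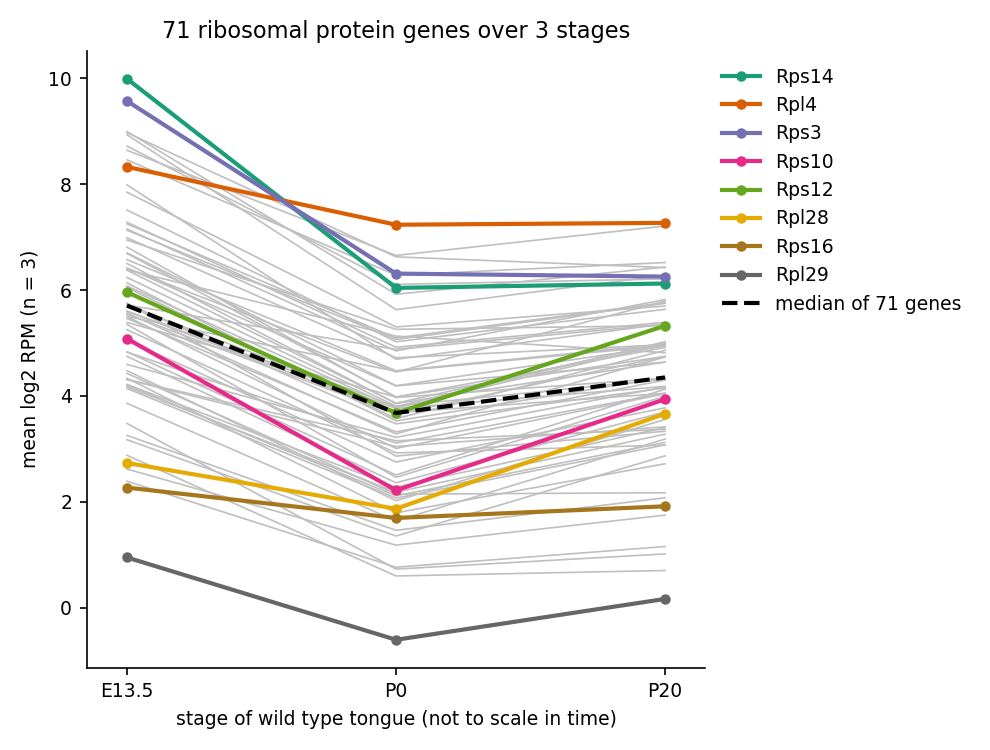
Mean log2 RPM (vertical axis, n = 3 wild type libraries per point) of each of the 71 genes (grey lines) at 3 stages, with 8 genes in colour and the median of the 71 as a dashed line. Rps14 drops by 3.95 between E13.5 and P0 while Rpl4 drops by 1.09, and Rpl28, Rps10 and Rps12 climb back the most by P20.

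From P0 to P20 in wild type tongue 52 of the 71 genes rose and none fell (limma, adjusted p under 0.05). Of all tested genes 31.7% were higher and 14.9% lower. The median log2 difference was 0.67 over the ribosomal protein genes and 0.22 over all genes, and single genes ranged from -0.31 to 1.80. With every library centred on its median gene, 39 rose and 2 fell, and the split of calls over all genes went from 68.0% higher to 46.9% higher. In the same contrast 6 of 8 epithelium markers rose and 1 fell (median 1.29; sums of 2421 to 3136 RPM at P0 and 6445 to 8796 RPM at P20), 3 of 13 muscle markers rose and 4 fell (median -0.05), and 10 of 15 cell cycle markers fell (median -0.93). Their part in the result was not tested.

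Rpl28, a large-subunit protein, rose the most and ended above its embryonic level. It held 3.05, 4.01 and 3.99 RPM at P0 and 12.8, 13.1 and 12.3 RPM at P20, a log2 difference of 1.80 ± 0.16 (adjusted p = 5.16e-07, limma). Rps10, a protein of the small-subunit head known from Diamond-Blackfan anaemia, went from 4.30, 4.73 and 4.94 RPM to 15.8, 13.7 and 16.7 RPM (1.72 ± 0.17). Rps12 went from 12.5, 12.4 and 13.6 RPM to 43.3, 32.1 and 46.4 RPM (1.65 ± 0.14). Next came Rps23 of the decoding centre (1.62 ± 0.15) and Rpl36 (1.55 ± 0.16). P0 and P20 libraries did not overlap for Rpl28, Rps10 and Rps12, and of these 3 genes Rps10 and Rps12 stayed below their E13.5 values. Rpl28, Rps12, Rps23 and Rpl36 have gene bodies under 2 kb. In this contrast the 11 ribosomal protein genes under 2 kb had a median of 1.51, and the 56 from 2 to 10 kb had 0.67. Other genes had medians of 0.51 and 0.23 in these bands. The part of gene length in the rise was not tested.

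The genes at the low end of this contrast did not pass the test. Rps26, which contacts the messenger RNA just upstream of the start site, held 33.1, 33.4 and 38.9 RPM at P0 and 28.6, 25.3 and 30.9 RPM at P20 (-0.31 ± 0.13, adjusted p = 0.058, limma). Rps3 (-0.06 ± 0.16), Rpl7a (0.03 ± 0.13) and Rpl4 (0.04 ± 0.16) had differences near 0. Rps14, the gene with the steepest embryonic fall, differed by 0.08 ± 0.15 (adjusted p = 0.68, limma). With the libraries centred on all genes, Rps26 passed as lower (-0.53, adjusted p = 0.0022, limma).

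Against the median ribosomal protein gene, 21 of the 71 rose more and 19 rose less between P0 and P20, where 6.95% of all tested genes were higher and 50.4% lower on that scale, 57.4% in either direction. Rpl28 (1.07), Rps10 (0.999), Rps12 (0.93), Rps23 (0.90) and Rpl36 (0.82) were the furthest above it. Rps26 (-1.04), Rps3 (-0.78), Rpl7a (-0.70) and Rpl4 (-0.69) were among the furthest below it. On the log2 RPM scale, where 31.7% of all tested genes were higher, all 4 stalk genes rose (median 1.08), with Rplp1 at 1.34 ± 0.15 and Rplp0 at 0.56 ± 0.15. Both genes of the 5S particle rose (Rpl5 1.14 ± 0.14, Rpl11 0.82 ± 0.12). The exit tunnel rose in 5 of 8 (median 0.41), the messenger RNA channel in 3 of 6 (median 0.28), the decoding centre in 2 of 3 (median 1.01) and the mutant-phenotype group in 6 of 6 (median 0.64). Genes of the same structure thus differed in this interval: in the messenger RNA channel Rps2 rose by 1.10 ± 0.11 while Rps14 and Rps3 passed in neither direction. The 2 contrasts share the P0 libraries.

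The same contrasts in the biallelic animals compare other libraries, with the filter and the estimate of the spread shared between the genotypes in 1 fit. Between E13.5 and P0 the 70 genes that fell in wild type all fell in biallelic tongue (70 of 71; 37.6% of all tested genes were lower, 39.7% higher and 77.2% either), with a median of -2.18. Across the 71 genes the 2 sets of log2 differences correlated with r = 0.97 (Pearson) and 0.97 (Spearman). From P0 to P20, 46 genes rose in biallelic tongue (29.9% of all tested genes were higher) and 1 fell (17.3% were lower), with a median of 0.50. The gene that fell was Rps26, at -0.54 (adjusted p = 0.0029, limma). All 46 had also risen in wild type, 6 others passed in wild type only, and the correlation across genes was 0.97 (Pearson) and 0.98 (Spearman). Genes are not independent replicates, and these correlations are a description. The largest gap between the genotypes was 0.55 for Rpl29 in the earlier contrast and 0.50 for Rpl28 in the later one, and no gene passed the test of that difference, as given with the genotype results.

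**Figure D3:**
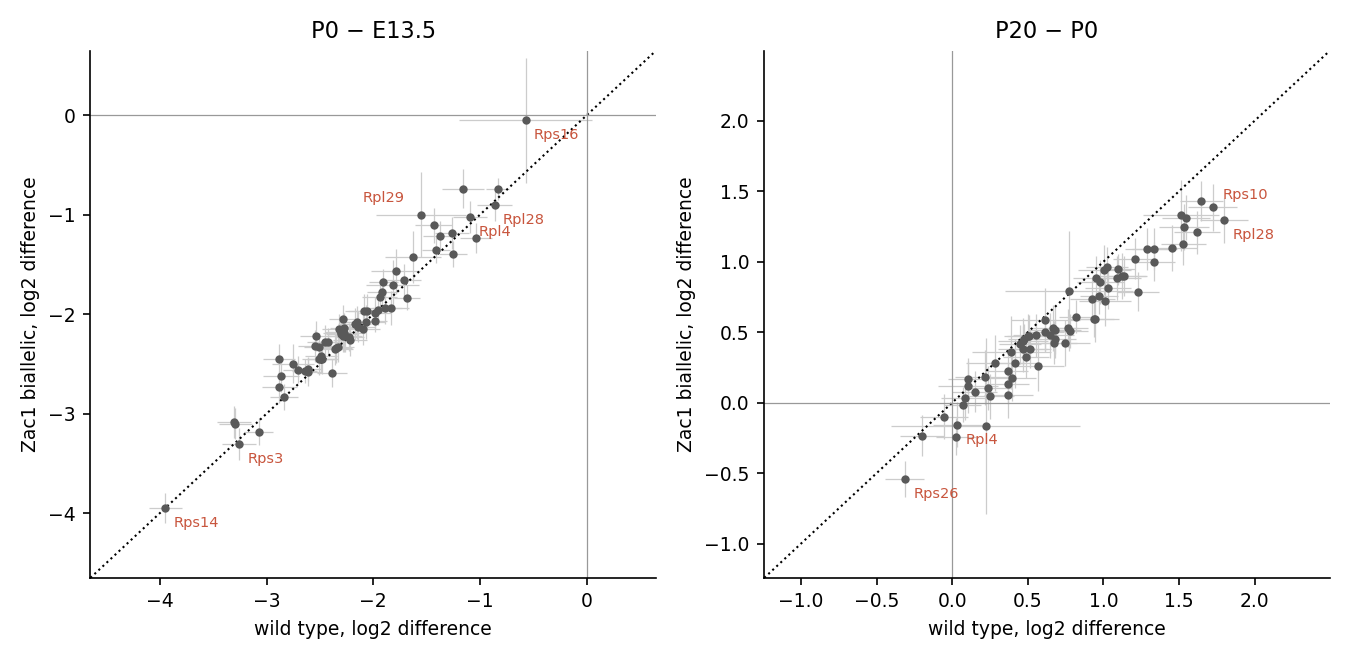
Log2 difference of each of the 71 genes in wild type (horizontal axis) and Zac1 biallelic tongue (vertical axis) for P0 minus E13.5 (left) and P20 minus P0 (right); bars are SE from the joint fit and the dotted line marks equal values. In the left panel the genes lie along the line from Rps14 at -3.95 to Rps16 at -0.57 in wild type, and in the right panel most lie under the line, with medians of 0.67 and 0.50.

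Runs of pyrimidines near the start were more common in these genes than in all genes, and the medians of genes with and without one were close in both stage contrasts. RefSeq promoter windows (GRCm38.p6, 250 bases before to 50 after the annotated start) were given for 50 of the 71. An unbroken run of at least 8 C or T that spanned or lay within 20 bases of the start was present in 27 of the 50 (54.0%), against 23.9% of all 27025 genes with a window. CCGGAAG was found on either strand in 42.0% against 9.9%, GGGCGG in 58.0% against 38.2%, AAGATGG in 9 of the 50 against 7.3% and TATAAA in 8.0% against 15.7%. The 27 genes with a pyrimidine run had a median of -2.28 between E13.5 and P0, and the 23 without had -2.30. Between P0 and P20 the medians were 0.78 and 0.67. The 30 bases around the start, 15 on each side, are shown for 6 genes at the ends of the stage contrasts, of which Rpl28, Rps10 and Rps26 have a run and Rps7, Rps3 and Rpl24 have none; capitals mark pyrimidine runs of 8 or more.
Rpl28, chr7:4792950-4792979, plus strand: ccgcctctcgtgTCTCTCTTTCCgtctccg
Rps10, chr17:27635230-27635259, minus strand: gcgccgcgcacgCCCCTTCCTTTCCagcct
Rps26, chr10:128626492-128626521, minus strand: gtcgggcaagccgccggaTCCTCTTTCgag
Rps7, chr12:28635939-28635968, minus strand: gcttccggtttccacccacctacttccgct
Rps3, chr7:99483695-99483724, minus strand: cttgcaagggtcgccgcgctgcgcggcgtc
Rpl24, chr16:55966260-55966289, plus strand: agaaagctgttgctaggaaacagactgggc
A run stood near the start of Rpl28 and Rps10, the genes with the largest rise to P20, and also of Rps26, at the opposite end of that contrast. A match of letters is a description and shows no use of the motif.

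The paralogs showed 1 gene that went against all the others. Rpl3l, a paralog of Rpl3 known from striated muscle, had 0 reads in each of the 3 wild type libraries at E13.5. It held 11.3, 15.9 and 6.36 RPM at P0 and 49.7, 43.4 and 34.1 RPM at P20. At P0 it was at least 169-fold higher than at E13.5, taking 3 reads per library as the floor, and it rose by 3.79 times from P0 to P20. Rpl3 itself, which sits beside the peptidyl transferase centre, went from 101.6, 111.5 and 99.4 RPM to 17.0, 16.3 and 22.2 RPM and then to 30.9, 25.5 and 36.8 RPM. Per kilobase of exon, Rpl3l thus made up 37.6 ± 13.9% (SD, n = 3) of the transcripts of the pair at P0 and 57.95 ± 8.23% at P20 in wild type tongue, and 20.9 ± 2.30% and 59.6 ± 9.38% in biallelic tongue. The genotypes overlapped at P0 in that share (22.5 to 49.8% in wild type, 18.3 to 22.7% in biallelic) but not in the RPM of Rpl3l, where 3.07% of all genes separated as lower. The RPM of Rpl3l differed by -0.99 ± 0.31 between biallelic and wild type, a difference that did not survive correction (limma p = 0.013, adjusted p = 0.9998). In the same comparison 11 of 13 muscle markers were lower and 2 higher in biallelic tongue (median -0.26), and 0 passed. The muscle marker sums overlapped, with 28274 to 34728 RPM in wild type and 28922 to 30263 RPM in biallelic tongue. Their part in the difference of Rpl3l was not tested.

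**Figure D4:**
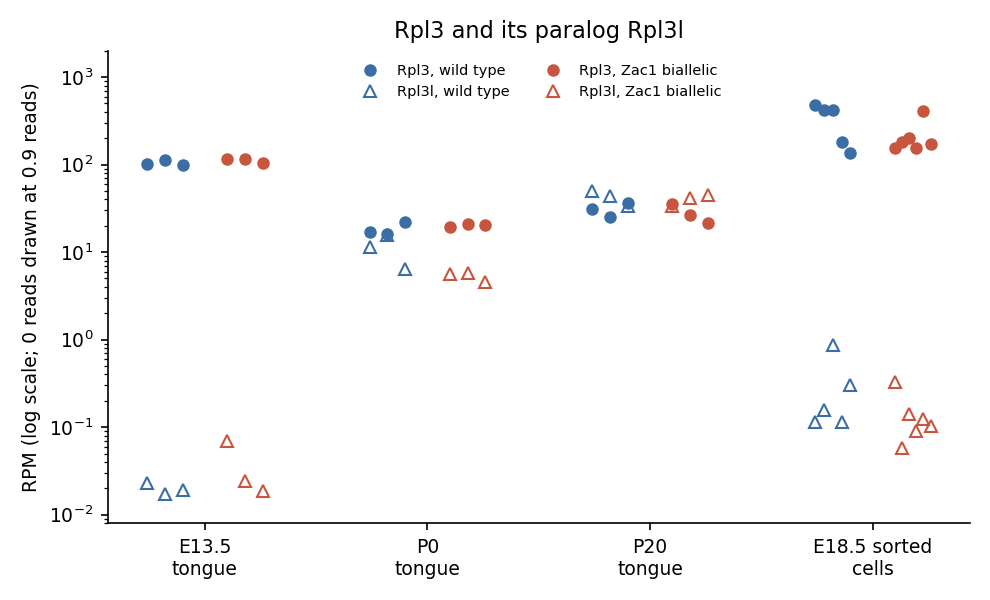
RPM on a log scale (vertical axis) of Rpl3 (filled circles) and Rpl3l (open triangles) in every library, wild type in blue and Zac1 biallelic in red; genes with 0 reads are drawn at 0.9 reads. Rpl3l lies at the bottom of the scale at E13.5 and in the sorted E18.5 cells, and reaches 34.1 to 49.7 RPM in wild type tongue at P20.

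The other 8 tested paralogs and ubiquitin fusions fell from E13.5 to P0, where 39.9% of all tested genes were lower. Of these, 5 rose again to P20, where 31.7% of all tested genes were higher and 14.9% lower. Fau, whose product is cut into Rps30 and a ubiquitin-like protein, changed by -2.28 and then 0.95 on the log2 scale. Rpl22l1 changed by -2.41 and 1.28, Rpl36al by -1.80 and 0.81, and Rps27rt (listed as Gm9846) by -2.37 and 1.42. Rps27l (-2.29, then 0.09) and Rpl7l1 (-2.15, then 0.14) did not pass the second test. Rps4l, listed as Rps4y2, was the one that fell in both intervals (-2.22, then -1.03).

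The rest of the translation apparatus was read from lists chosen beside the ribosomal protein genes. From E13.5 to P0, where 39.9% of all genes were lower, 44 of 50 ribosome biogenesis genes fell and 1 rose (median -1.10), 30 of 36 translation factors fell and 2 rose (median -1.26), and 59 of 75 mitochondrial ribosomal protein genes fell and 3 rose (median -1.09). Each of these medians was closer to 0 than the -2.27 of the ribosomal protein genes. Npm1, a nucleolar assembly factor, fell by 2.83 on the log2 scale, Rack1 (listed as Gnb2l1), a scaffold on the small subunit, fell by 3.17, and Eef1b2, an elongation factor subunit, fell by 2.34. The translation factor Eef1a2, the muscle and neuron form of elongation factor 1 alpha, ran the other way with 1, 2 and 0 reads at E13.5 and means of 40.1 RPM at P0 and 141.1 RPM at P20. From P0 to P20, where 31.7% of all genes were higher and 14.9% lower, the biogenesis genes had 6 higher and 4 lower (median 0.04) and the translation factors 9 higher and 3 lower (median 0.11), while the mitochondrial ribosomal protein genes had 29 higher and 6 lower (median 0.26). The small nucleolar RNA host genes Gas5 (-2.05), Snhg12 (-1.93) and Snhg9 (-2.63) fell between E13.5 and P0. Among 22 regulators of ribosome synthesis 8 rose and 7 fell in that interval (median 0.10), near the 37.9% and 39.9% of all genes tested: Mycn, a growth-promoting transcription factor, fell by 4.06 on the log2 scale and then by 2.22, Rptor and Mtor of the mTOR pathway rose by 1.41 and 1.05, and Maf1, a repressor of RNA polymerase III, fell by 1.33. In that interval the medians by gene body ran from -1.17 under 2 kb to 1.65 at 200 kb or more. The part of gene length in the changes of these regulators was not tested.

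Between genotypes, no ribosomal protein gene passed the test at any tongue stage. The limma calls were 0 of 71 at E13.5 (0% of 11869 genes tested), 0 of 70 at P0 (0.016%, 2 of 12489 genes, 0.00801% in each direction) and 0 of 71 at P20 (0% of 12693 genes). Rpl29, of the large subunit, failed the filter at P0, with 0.58 to 0.75 RPM in the 6 libraries. At an unadjusted p under 0.05 there were 0, 5 and 1 of the ribosomal protein genes, against 386, 412 and 286 of all genes. A voom fit on the recovered reads called none of them and gave 3, 1 and 1, against 359, 409 and 311 of all genes. The median log2 difference, biallelic minus wild type, was 0.05 at E13.5 (47 genes higher, 24 lower), 0.11 at P0 (67 higher, 3 lower) and -0.06 at P20 (19 higher, 52 lower), where all genes had -0.06, 0.04 and -0.01. The genes of 1 library rise and fall together, so these counts do not weigh 71 separate genes. With E13.5 biallelic 3, P0 wild type 2 and biallelic 1, and P20 biallelic 3 left out, libraries that an earlier description of these data sets apart, the P0 median was 0.035 with 48 higher and the P20 median was 0.02 with 43 higher.

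Rps27, a zinc finger protein of the small subunit, had the smallest p at E13.5 and at P0. At P0 it held 3.60, 4.27 and 4.36 RPM in wild type and 6.17, 5.75 and 4.80 RPM in biallelic tongue, with no overlap, a difference of 0.45 ± 0.15 (limma p = 0.018, adjusted p = 0.9998). At E13.5 it held 22.8, 20.01 and 24.3 RPM against 29.2, 25.6 and 25.8 RPM (0.27 ± 0.13), and at P20 the groups overlapped (0.16 ± 0.20). At P20 the smallest p was that of Rpl28, with 12.8, 13.1 and 12.3 RPM in wild type and 11.03, 9.33 and 9.76 RPM in biallelic tongue, again with no overlap (-0.34 ± 0.10, limma p = 0.0098, adjusted p = 1). Rpl27 (0.35 ± 0.13), Rpl10a (0.31 ± 0.13) and Rpl6 (0.26 ± 0.11) followed at P0, and Rpl15 (0.27 ± 0.14) and Rps15a (-0.33 ± 0.22) at E13.5. At P20 Rpl15 (-0.27 ± 0.13), Rps26 (-0.25 ± 0.14) and Rps16 (-0.44 ± 0.32) followed Rpl28.

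At E13.5 and P0 the share of ribosomal protein genes that lay above wild type without overlap exceeded the share over all genes. The genes of 1 library rise and fall together, so these counts are not separate events. Biallelic tongue was above wild type in 5 of 71 genes at E13.5 (Rps27, Rps23, Rpl15, Rps2 and Rps14; 2.43% of all genes tested), and below it in Rpl27a alone (7.69%). At P0 it was above in 10 of 70 (5.83%) and below in 0 (3.07%), and at P20 above in 0 (3.14%) and below in Rpl28 alone (3.74%). With 3 animals against 3, an exact two-sided permutation test of a gene cannot go below p = 0.10. The change of the genotype difference with stage also called none of the 71 (0% of 13663 genes, limma), with medians of 0.07 from E13.5 to P0 and -0.19 from P0 to P20. At an unadjusted p under 0.05 that test gave 0 and 2 of the 71, against 766 and 185 of all genes. Rpl28 had -0.50 ± 0.23 in the later interval (limma p = 0.042, adjusted p = 1).

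Within groups the ribosomal protein genes tended to move as a block from library to library, more clearly at P0 and P20 than at E13.5. Over the 18 tongue libraries, after removing each group's mean, the median correlation of 2485 gene pairs was 0.61, and 93.0% of pairs were positive. With libraries centred on all genes it was 0.56. These are descriptions over genes that share libraries and depth, and no value for other genes is set beside them. At E13.5 biallelic 1 to 3 had 32, 35 and 38 of the 71 genes above their group mean, and wild type 1 to 3 had 47, 20 and 37. At P20, wild type 3 had 70 of the 71 genes above its group mean (median deviation 0.18) and wild type 2 had 2 of them above it (-0.23). In the biallelic group at P20, animal 1 had 70 above (0.24) and animal 3 had 2 (-0.18). The epithelium markers of wild type 1 to 3 summed to 7771, 6445 and 8796 RPM and those of biallelic 1 to 3 to 9234, 7767 and 5285 RPM, the same order within each genotype as the ribosomal protein sums. The cell cycle markers had that order too, with 69.5, 63.0 and 128.3 RPM in wild type and 86.9, 83.7 and 60.3 RPM in biallelic tongue. The muscle markers summed to 33131, 31577 and 24484 RPM and to 23016, 29007 and 36720 RPM, the opposite order in the biallelic group. At the earlier stages the epithelium order matched that of the ribosomal protein sums in E13.5 wild type and P0 biallelic tongue. It did not match in E13.5 biallelic and P0 wild type tongue. The part of these markers in the result was not tested. The median SD of a ribosomal protein gene was 0.22 in wild type tongue at P20, against 0.14 over all genes tested, while at E13.5 and P0 it was 0.16 and 0.12 against 0.19 and 0.19. Rps16 (correlation with the median of the others -0.13), Rpl29 (0.11) and Rps19 (0.14) were among those that followed the block least. In wild type tongue at P0 these 3 genes held 2.71 to 3.87, 0.601 to 0.748 and 2.73 to 2.79 RPM.

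In the sorted E18.5 cells the block was wider still, and it divided the wild type animals. The summed RPM of wild type animals 7, 8 and 9 was 16503, 12685 and 17577, and that of wild type animals 10 and 11 was 5569 and 3520. The 6 biallelic animals summed to 5310 to 10495 RPM, and biallelic 5 was the highest of them. In 63 of the 71 genes wild type 7, 8 and 9 were all above the other 8 animals, and in 66 of the 71 wild type 11 was the lowest of all. Wild type 11 also had the smallest library total, 2938462 reads, where 3 reads equal 1.02 RPM. Biallelic 5 was the highest biallelic animal in 70. The group means were 11171 ± 6358 (SD, n = 5) and 6419 ± 2009 RPM (n = 6).

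No ribosomal protein gene passed the genotype test in the sorted E18.5 cells (0 of 71, 0% of 11127 genes, limma). At an unadjusted p under 0.05 there was 1 of the 71 and 1298 of all genes. Voom gave 6 of the 71, against 1834 of all genes, and called none. All 71 had a lower mean in biallelic cells, with a median of -0.72 where all genes had -0.11, yet in no gene did the groups separate (0.153% of all genes were above and 0.719% below). Rpl38 had the smallest p (-1.21 ± 0.53, limma p = 0.036, adjusted p = 0.43). Its wild type animals 7 to 11 held 19.9, 16.4, 38.8, 4.56 and 4.42 RPM, and its biallelic animals ranged from 2.96 to 7.89 RPM with the 2 lower wild type animals inside that range. Rpl12 (-1.12 ± 0.55), Rpl31 (-0.99 ± 0.47) and Rps16 (-0.79 ± 0.38) followed with the same split of the wild type animals. Without wild type 7, 8 and 9 only wild type 10 and 11 were left in that group. The median then turned to 0.60, where all genes had -0.10, with 71 of 71 genes higher and 0 called. At an unadjusted p under 0.05 (limma) that fit gave 24 of the 71, against 387 of all 11127 genes. Without biallelic 5 as well the median was 0.47. The sign of the genotype difference thus rested on wild type 7, 8 and 9.

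Some other transcripts moved with the same animals. Ngp, a neutrophil granule gene, held 118.3 to 268.5 RPM in wild type 7, 8 and 9 and at most 17.2 RPM in the others, and S100a8 held 469.1 to 714.5 against 57.7 to 129.3 RPM. Myc, which drives ribosome synthesis, held 16.6, 36.8 and 42.6 RPM in wild type 7, 8 and 9, 8.37 and 5.79 RPM in wild type 10 and 11, and 15.4 RPM in biallelic 5. The 15 cell cycle markers summed to 339.2, 278.5 and 483.7 RPM in wild type 7, 8 and 9 and 339.1 RPM in biallelic 5, against 106.9 to 154.0 RPM in the other 7 animals. None of the 15 passed the genotype test, and 13 had a lower mean in biallelic cells (median -0.78). The whole leukocyte list, which holds Ngp and S100a8, did not split the animals in this way. It summed to 4595, 3995 and 4730 RPM in wild type 7, 8 and 9 and to 4384 and 4713 RPM in wild type 10 and 11. In biallelic cells it summed to 3507 to 4901 RPM. The chondrocyte list summed to 277.7 to 681.0 and 438.8 to 1096 RPM, with Col2a1 at 154.0 to 433.3 and 245.1 to 759.9 RPM. The sorting markers Cd24a and Cd200 held 28.7 to 55.6 and 4.78 to 21.3 RPM over the 11 animals. The part of these transcripts and cells in the result was not tested.

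**Figure D5:**
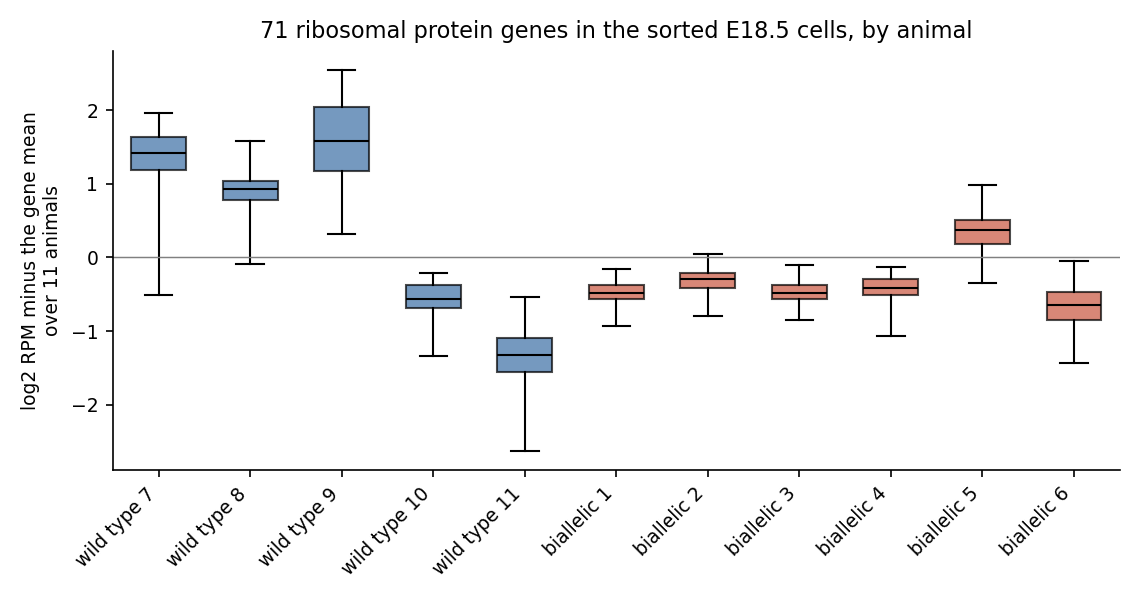
Log2 RPM of the 71 genes minus each gene's mean over 11 animals (vertical axis) in the sorted E18.5 cells, as boxes (quartiles and median, whiskers to the extremes), wild type animals in blue and Zac1 biallelic animals in red. Wild type 7, 8 and 9 lie above the rest and wild type 11 below, with group means of 11171 and 6419 RPM for the summed genes.

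Levels were also set per kilobase of exon, with the joined length of all exons annotated in protein-coding transcripts of a gene. This length was 383 bases for Rpl36 and 6000 for Rps15a, and can exceed that of the transcript in use. The level and rank of a gene with long annotated exons can thus be too low, and ranks between genes carry that uncertainty. In wild type tongue the median gene stood at 39.5 RPM per kb at E13.5, 11.1 at P0 and 19.7 at P20. At E13.5 the range ran from Rpl29 (1.74) to Rps14 (791.1), and at P20 from Rpl9 (0.7499) to Rplp1 (111.3). The RPM per kb of the upper quartile was 5.92, 5.39 and 4.43 times that of the lower quartile at the 3 stages. The order of the genes stayed close between E13.5 and P0 (Spearman 0.96 over 71 genes) and between P0 and P20 (0.97). Rps14 moved from rank 1 to rank 9 and then 12, and Rplp1 from rank 16 to 11 and then 1.

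In wild type sorted cells the median was 99.8 RPM per kb, from Rpl22 (13.9) to Rplp0 (727.9), and the order related less to that of tongue (Spearman 0.49 to 0.51). Rps6, the main target of S6 kinase, ranked 65 of 71 at each tongue stage and 3 in the sorted cells, Rps16 went from 64 at E13.5 to 21, and Rpl9 from 68 to 41, while Rps21 went from 7 to 59. These 4 genes were picked after their values were seen. The tables come from separate protocols, total RNA without ribosomal RNA in tongue and polyadenylated RNA amplified by SMART-seq2 in the sorted cells, so tissue and protocol cannot be told apart. Genes with named pseudogenes (53) had a median log2 ratio of P0 tongue over the sorted cells of -3.11, and the 18 without had -2.35. The 60 rows with pseudogene names summed to 1.05 to 1.33% of the sum of the 71 genes at E13.5, 1.16 to 1.65% at P0, 2.16 to 2.40% at P20 and 1.39 to 2.01% in the sorted cells.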

How the data were processed

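The deposited tables hold log2 RPM per gene in 18 tongue libraries and 11 animals of sorted E18.5 cells labelled chondrocytes, which the authors had already normalized to each library's total. Per the labels' protocols, tongue libraries were strand-specific (dUTP) and 3 biological replicates were made per genotype. The submitters' processing notes name HISAT2, TopHat2 2.1.0, Trim Galore 0.4.2 and GRCm38. The counting tool was not given in the sources used here. For sorted-cell animals biallelic 1 to 4, 2 libraries each share 1 column.

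A gene with 0 reads is held at 0.9 reads in the deposited values. All values below 1000 reads were whole reads within 0.05. The lowest chi-square per degree of freedom between 43 pairs of libraries was 7.19, so none was a repeat of another. Tests used limma 3.58.1 in R 4.3.3 on the log2 values with a mean-variance trend, and Benjamini-Hochberg adjustment over all genes tested. Genes needed 1 RPM in 3 of 6 tongue libraries, 5 of 11 sorted-cell animals, or 3 of 18 libraries in the joint stage fit, whose stages share 1 estimate of the spread. The same limma steps were run on simulated data with the gene levels of the P0 tongue and 3 libraries per group. The design and spread of the sorted cells were not simulated. Log2 differences are on the log2 RPM scale with no pseudocount beyond the 0.9 reads, and p-values measure the spread between animals as labelled.

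Summed RPM, correlations across genes, list medians and promoter shares are descriptions. Named are the 5 genes at each end of a wild type stage contrast and of the contrast against the median member, the 4 of smallest p per genotype contrast, those of highest and lowest level, those failing a filter, up to 3 per role list, every tested paralog and, of other lists, those of smallest p. The members and lists were chosen with earlier results of these data known. Alternatives were other centring, voom, another pseudocount, other filters, a replicate block and libraries left out. Some genes that this rule names are not reported here.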

Additional observations from a re-analysis of the deposited data

Results flagged for a closer look

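In groups of 4 to 10 animals, the highest or lowest value was tested with Dixon's 95% limit, which chance passes in about 1 of 20 groups. Over 22 groups of values, all from the sorted E18.5 cells, 6 passed, and all 6 were biallelic 5 as the high animal of the biallelic group. Its summed RPM of the 71 genes was 10495, where the other 5 biallelic animals held 5310 to 5981. Among single genes, Rplp0 of the stalk stood at 1509 RPM against 715.8 to 850.2, Rpl4 of the exit tunnel at 1009 against 416.0 to 517.1, and Rpl7 at 380.0 against 234.2 to 282.2. Rpl12 stood at 15.4 against 5.57 to 7.79 RPM and Rpl23a at 7.89 against 4.66 to 5.15 RPM. The 6 values come from 1 animal and are not separate events. This animal also held the highest Plagl1 (49.99 RPM) of the 11, and its part in the genotype comparison is given with the results of those cells.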

How the results depend on the processing

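Median centring of the libraries gave members' medians of 0.11 (biallelic minus wild type, E13.5), -2.08 (P0 minus E13.5, wild type), 0.45 (P20 minus P0, wild type) and -2.08 (P0 minus E13.5, biallelic). With log2(RPM + 1) the P0 minus E13.5 medians were -2.14 and -2.04. Centred on genes under 10 kb, a setting added after seeing the data, the 4 stage medians were -1.51 and 0.42 in wild type and -1.46 and 0.22 in biallelic tongue. Voom gave a median change of the genotype difference from E13.5 to P0 of -0.02. As a percent of listed RPM the P0 over E13.5 ratio of the sum was 0.204 in wild type, against 0.1835 on RPM. Without wild type 7, 8 and 9 in the sorted E18.5 cells the genotype median was 0.60, and 0.47 without biallelic 5 as well; the named genes turned positive in these fits: Rpl12 0.47 and 0.28, Rpl31 0.38 and 0.27, Rpl38 0.21 and 0.094, Rps16 0.40 and 0.36. From P0 to P20 in wild type, Rpl4 was -0.18, -0.16 and -0.22 and Rpl7a -0.19, -0.16 and -0.22 under median centring, voom and centring on short genes, and leaving out 1 library gave ranges of -0.064 to 0.13 (Rpl4), -0.015 to 0.11 (Rpl7a) and -0.19 to 0.11 (Rps3), none of which passed. Rps16 from E13.5 to P0 was 0.19 when centred on short genes and ranged from -1.04 to 0.30 over the leave-out fits. The cause was not tested.

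Of P20 minus P0 calls, the count in wild type was 41 under median centring, 43 with voom and 40 on short genes, against 52, and ranged from 41 to 53 over fits that left out 1 library; in biallelic tongue it was 35, 37 and 32, against 47, and ranged from 34 to 49. The share of higher calls among all genes went from 68.0% to 46.9%, 52.7% and 43.6% in wild type and from 63.4% to 45.4%, 53.0% and 37.1% in biallelic tongue, and for P0 minus E13.5 on short genes from 48.7% to 73.5% and from 51.3% to 74.4%. Without a filter it went to 31.7% and 32.8% for P0 minus E13.5. The calls for the fall from E13.5 to P0 stayed at 64 to 70 of 71 in wild type under every alternative run, and those of the genotype tests at 0. Replicate numbers did not pair the animals (correlations of same-numbered animals from -0.65 to 0.36); a replicate block gave 70 and 53 calls in wild type, 70 and 45 in biallelic tongue, and 0 for genotype. The animals of the sorted cells share no numbers across genotypes, and no paired analysis was possible there. Depth limits the lowest genes: 3 reads equal 0.0325 to 0.0814 RPM in tongue and 0.191 to 1.02 RPM in the sorted cells.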
